A study of Mus musculus with 6 samples.

Results

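The genes described are 7 components of the Sonic hedgehog pathway: the ligand Shh, the receptor Ptch1, the transducer Smo, the inhibitor Sufu and the transcription factors Gli1, Gli2 and Gli3. Each was given a window of its gene body plus 50 kb on each side, and every ATAC-seq peak overlapping a window was taken. The 7 windows held 142 of the 120143 merged regions of the series, a merged region being the joint extent of peaks that overlap by 1 bp or more in any of the 6 libraries. ATAC-seq marks chromatin that a transposase can enter, and a peak is a stretch where its insertions exceed the local background.

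The libraries came from neural stem cell cultures of the subependymal zone (SEZ) of 10-week-old mice. All 6 carried the CRISPR-Cas9 deletion of Srr2, an enhancer of Sox2, on both alleles (Srr2 del/del), and wild-type cultures were not analysed here. Secondary neurospheres grown in EGF (20 ng/ml) and FGF (10 ng/ml) were seeded on Matrigel with FGF for 2 days in the proliferating state (PROLIF, 2 DIV). The early differentiating state (DIFF, 2 + 1 DIV) had 1 further day without mitogens and with 2% serum, so mitogen withdrawal and serum cannot be told apart. Each state had 3 libraries, replicates 1, 2 and 4, made from 50000 cells each, and which founder strain they came from was not given in the sources used here. The study describes its 3 Srr2 del/del replicates as independent cultures. Nothing says that the libraries of a state came from separate animals, so the tests measure the spread between these libraries.

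In the pathway, Shh binds Ptch1, which then releases Smo. Active Smo, at the primary cilium, frees the Gli factors from Sufu. Gli2 is mainly an activator, Gli3 is mainly cut to a repressor, and Gli1 is both an activator and a target gene of the pathway, as is Ptch1. In the adult SEZ, hedgehog signalling is known for its part in neural stem cells and in the identity of ventral progenitors.

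The lists held 60006 to 82741 peaks in PROLIF and 70728 to 88039 in DIFF. The background pileup, which follows depth, was 2.85 to 2.97 reads in PROLIF, 2.96 and 3.63 reads in DIFF replicates 2 and 1, and 6.01 reads in DIFF replicate 4, the deepest library. A peak that is missing from a list is a signal under the caller's threshold, and fewer cells with an open site cannot be told from a weaker opening per cell. Promoter peaks within 3 kb of a start site were found in all 6 libraries for 7 of 7 neural stem cell markers (Sox2, Nes, Vim, Fabp7, Slc1a3, Gfap, Egfr). They were found in all 6 for 2 of 4 neuronal, 2 of 4 oligodendrocyte, 2 of 4 microglial, 1 of 2 ependymal, 0 of 4 endothelial and 0 of 2 mural markers. Dcx, Sox10, Cx3cr1, Cldn5, Cdh5 and Tek had none in any library. Of the markers, the promoter regions read for Nes (-0.73 on the log2 scale, adjusted p = 0.0153) and P2ry12 (-0.69, adjusted p = 0.00414) were lower in DIFF by limma. The Nes region tested lay inside the gene, with PROLIF summits 3342 to 3346 bp past the start. In DIFF the strongest Nes promoter peaks lay in another region, 25 to 32 bp before the start, whose difference is not given here. At the Pecam1 promoter 3 PROLIF and 0 DIFF libraries held a peak. The part of the markers in the results below was not tested.

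The windows held more peaks in every DIFF library than in any PROLIF library. PROLIF replicates 1, 2 and 4 had 100, 91 and 84 peaks in the 7 windows, and DIFF replicates 1, 2 and 4 had 108, 118 and 129. The difference was 26.7 peaks between means of 91.67 ± 8.02 and 118.3 ± 10.5 (SD, n = 3). The PROLIF library with the most peaks in its list and the DIFF library with the greatest depth were each the highest of their state. Per 1000 peaks of the list, PROLIF had 1.209, 1.365 and 1.4 window peaks, and DIFF had 1.515, 1.668 and 1.465, again without overlap. With every list cut to the length of the shortest, the difference fell to 12.3 peaks and kept its direction. Among the strongest 20000 peaks of each list the difference was 3.33 peaks, and the states overlapped (exact permutation p = 0.2). The names of the peaks carry the numbers of the input data, which fall in a lower range (2 PROLIF and 1 DIFF library) and a higher one (1 and 2). What these ranges stand for is not given in the sources used here. Since every DIFF library exceeds every PROLIF library, a split by range could only keep the direction, and an effect of the ranges was not tested. The peaks covered 48.64, 45.26 and 38.64 kb in PROLIF and 47.6, 52.39 and 57.8 kb in DIFF, where the groups overlapped. Window peaks were narrower in DIFF, at a mean of 444.3 ± 3.66 bp against 481.3 ± 19.2 bp (SD, n = 3). Widths over the whole lists were not measured, so whether this is particular to the windows was not tested.

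By gene, the DIFF libraries lay above the PROLIF libraries for Shh, Ptch1 and Sufu, and the states overlapped for Smo, Gli1, Gli2 and Gli3. The Shh window had 4, 4 and 2 peaks in PROLIF and 6, 6 and 7 in DIFF. The Ptch1 window had 17, 15 and 13 peaks in PROLIF and 21, 20 and 23 in DIFF. The Sufu window had 17, 17 and 19 peaks in PROLIF and 23, 25 and 25 in DIFF. For each of these genes the two-sided exact permutation test gave p = 0.1, the smallest that 3 libraries against 3 allow. Of all 21951 protein-coding gene windows, 7.93% had more peaks in every DIFF than in every PROLIF library and 1.52% the reverse. These shares, and the one that follows, take no account of window length or number of peaks. Per 1000 peaks of the list, Shh and Ptch1 still did not overlap, as for 8.89% of gene windows, and Sufu did. The Gli2 window had 20, 20 and 18 peaks in PROLIF and 19, 27 and 29 in DIFF, so that DIFF replicate 1 lay with the PROLIF libraries (exact permutation p = 0.3). The Gli3 window had 22, 19 and 17 peaks against 21, 19 and 22, and the Gli1 window 9, 8 and 7 against 7, 9 and 12 (exact permutation p = 0.7 for each). The Smo window had 11, 8 and 8 peaks against 11, 12 and 11 (exact permutation p = 0.3).

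**Figure D1:**
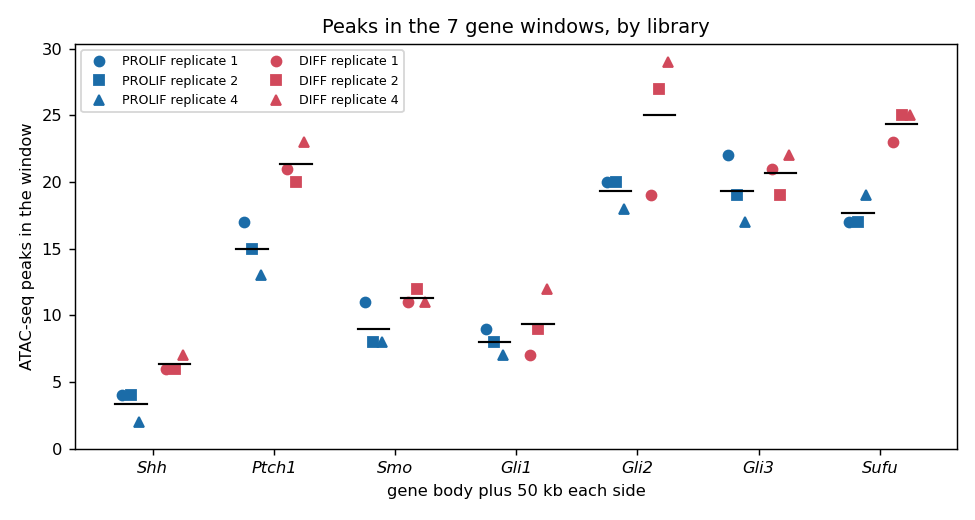
Number of ATAC-seq peaks (vertical axis) in the window of each gene (horizontal axis), with 1 point per library, PROLIF in blue, DIFF in red and a bar at the mean of 3 libraries. All 3 DIFF points lie above all 3 PROLIF points for Shh, Ptch1 and Sufu, and the states overlap for the other genes.

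Of the 142 regions, 69 were called in all 6 libraries, which is 48.6% against 33.4% of all merged regions. DIFF-only regions, with a peak in 3 DIFF and 0 PROLIF libraries, numbered 12 (8.45%, against 3.47% of all regions). There was 1 PROLIF-only region (0.704%, against 1.78%). Another 24 regions (16.9%, against 29.7% of all regions) were found in 1 library each, 9 of them in DIFF replicate 4. More DIFF than PROLIF libraries held 52 regions (36.6%, against 34.8% of all regions). More PROLIF than DIFF libraries held 14 (9.86%, against 25.1%), and equal numbers held 76 (53.5%, against 40.1%). The DIFF-only regions were spread over 4 windows, with 4 in Gli2, 4 in Sufu, 3 in Ptch1 and 1 in Gli3, and the windows of Shh, Smo and Gli1 had 0. At least 3 DIFF-only regions were found in 1.42% of all protein-coding gene windows and at least 4 in 0.405%, without regard to window length. The windows were not equally dense. Regions per 100 kb put Ptch1 at percentile 94.4 of gene windows and Sufu at 93.5, against 82.9 for Gli2, 76.1 for Smo, 72.1 for Gli1, 66.3 for Shh and 61.8 for Gli3.

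Windows also reach into other genes. The Gli2 and Gli3 windows overlap no other protein-coding gene, whereas the Gli1 window overlaps 8, the Sufu window 5, the Smo window 2, and the Shh and Ptch1 windows 1 each (Rbm33 and Fancc). By position, 25 of the 142 regions were less than 3 kb from a start of the member itself, 18 within 3 kb of another protein-coding gene's start and 99 were distal to both. A protein-coding gene other than the member was the nearest for 37 regions. Of the DIFF-only regions, 10 were distal and 8 had the member as nearest gene.

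**Figure D2:**
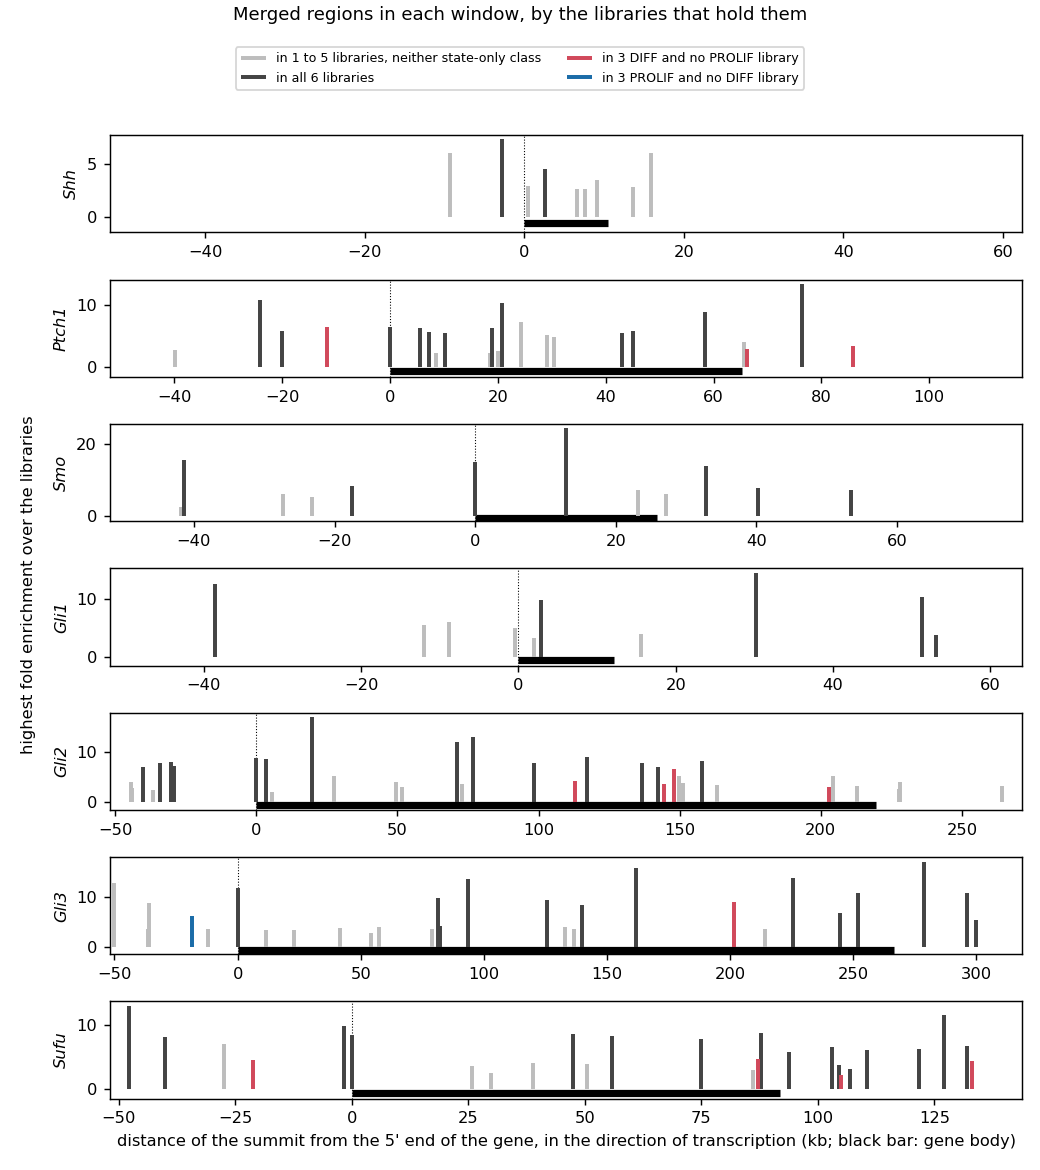
Merged regions in each window, placed by the distance of the summit from the 5' end of the gene in the direction of transcription (kb), with the highest fold enrichment over the libraries as height. The black bar is the gene body, and colours give the libraries that hold the region. DIFF-only regions stand in the introns of Gli2, Gli3 and Sufu, on both sides of Ptch1 and in the flanks of Sufu, and the 1 PROLIF-only region lies upstream of Gli3.

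Differences in strength were tested where a peak exists in every library. Log2 fold enrichment was quantile normalised over 40164 regions found in all 6 libraries and tested by limma with Benjamini-Hochberg adjustment over all of them at 0.05. Of the 69 window regions, 3 were higher in DIFF (4.35%, against 6.89% of all regions tested) and 5 were lower (7.25%, against 8.86%). The median difference, DIFF minus PROLIF, was 0.06 on the log2 scale, against 0.03 over all regions. The called regions lay in the windows of Ptch1 (1), Gli2 (2), Gli3 (1) and Sufu (4).

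**Figure D3:**
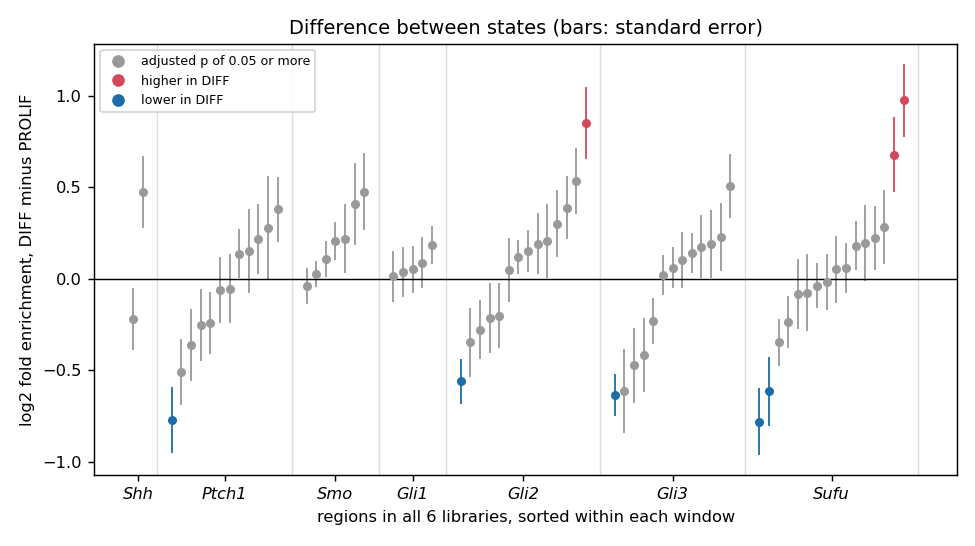
Difference in normalised log2 fold enrichment, DIFF minus PROLIF (vertical axis), for the 69 regions in all 6 libraries, sorted within each gene window (horizontal axis), with bars of 1 standard error. The 3 red points are higher in DIFF, the 5 blue points lower, and grey points did not pass the test.

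Shh (ENSMUSG00000002633.4, chr5:28456815-28467256 of GRCm38, minus strand) encodes the secreted ligand. Its window held 9 regions and 2 of them were in all 6 libraries. The stronger, at chr5:28469612-28470232, had its summit 2.5 to 2.8 kb upstream of the start site, and only 1 library had a peak within 1 kb of the start. Fold enrichment is the pileup at the summit over the local background of the same library, each with 1 added. For this region it was 4.87, 5.84 and 4 in PROLIF and 5.33, 6.63 and 7.35 in DIFF. PROLIF replicate 2 lay above DIFF replicate 1 as deposited. After normalisation the values were 2.04, 2.54 and 2.11 against 2.55, 2.63 and 2.93 on the log2 scale, without overlap. Of all 40164 regions tested, 16.6% had every DIFF library above every PROLIF library on this scale and 15.5% the reverse. The difference of 0.47 ± 0.20 (SE) did not pass the test (limma, adjusted p = 0.118). The other, at chr5:28464563-28465267 in an intron, had a fold enrichment of 4.13, 4.57 and 3.76 in PROLIF and 3.28, 3.37 and 3.31 in DIFF (difference -0.22 ± 0.17, limma adjusted p = 0.427). The other 7 regions of the Shh window were each missing from at least 1 library.

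Ptch1 (ENSMUSG00000021466.12, chr13:63508328-63573598, minus strand) encodes the receptor that holds Smo inactive, and its transcription is a common readout of the pathway. Of 23 regions, 12 were in all 6 libraries and 3 were DIFF-only. Ptch1 has several annotated start sites, and the strongest promoter peak of every library lay at chr13:63567648-63568321, upstream of the start of transcript Ptch1-201. Its fold enrichment was 5.41, 5.24 and 5.85 in PROLIF and 6.19, 6.27 and 5.94 in DIFF. The difference of 0.22 ± 0.19 on the normalised log2 scale did not pass the test (limma, adjusted p = 0.501).

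The DIFF-only region upstream of Ptch1, at chr13:63585096-63585587, lay 11.7 kb from the most distal start in intergenic sequence. Its fold enrichment was 4.53, 5.05 and 6.42 in DIFF replicates 1, 2 and 4, from 20, 19 and 44 reads at the summit, and no PROLIF list held a peak there. The other DIFF-only regions were weaker. One, at chr13:63506952-63507735, lay past the 3' end of the gene with a fold of 2.86 to 3.01, and one, at chr13:63487402-63487830, lay in an intron of the neighbour Fancc with a fold of 2.85 to 3.45. Within the gene, an exonic region at chr13:63514894-63515293 fell in DIFF. Its fold enrichment was 8.81, 6.34 and 5.98 in PROLIF and 3.42, 4.12 and 4.13 in DIFF, so every DIFF library lay below every PROLIF library (difference -0.77 ± 0.18, limma adjusted p = 0.0068). Ordered by their lowest percentile over the 6 lists, the first 3 regions outside the Ptch1 promoters were an intronic one at chr13:63552133-63553006 (fold 6.13 to 10.3), the Fancc promoter at chr13:63496685-63497540 (7.41 to 13.3) and an upstream one at chr13:63593524-63593890 (4.45 to 5.73), and none of them passed the test.

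Gli factors bind the motif GACCACCCA, and it was searched on both strands (reverse complement TGGGTGGTC). Within 100 bp of the summit of the best-ranked peak, 0 of the 142 window regions held it, against 0.136% of all regions on assembled chromosomes. Over whole regions, 3 of the 142 held it, against 0.373% of all regions, and wider regions hold more letters. All 3 lay in the Ptch1 window. The sequences are shown because they are the only such matches in the 7 windows; each is read from GRCm38 on the strand of the motif, with the motif in capitals.
Ptch1 upstream of transcript 201, chr13:63566425-63566453, plus strand: aaagtagagaGACCACCCAggtaggcaac
Ptch1 distal start, chr13:63573455-63573483, minus strand: tggcgcggcaGACCACCCAcgccgagggc
Ptch1 DIFF-only region, chr13:63585536-63585564, minus strand: taaatacacaGACCACCCAtcccacacac
The first lay in intronic sequence between the annotated starts, 93 bp from the summit to its first base, so that its end fell outside the 100 bp searched, inside a region of all 6 libraries (chr13:63565577-63566809, fold 3.9 to 5.65, difference 0.38 ± 0.18, limma adjusted p = 0.163). The second lay in the first exon of the transcript with the most distal start, in a region of all 6 libraries (chr13:63572450-63573928, fold 4.6 to 6.46, difference -0.25 ± 0.20, adjusted p = 0.435). The third lay in the DIFF-only region, 208 bp from its summit. Of the members, 5 had a RefSeq promoter (250 bases before to 50 after the start, GRCm38.p6), and 0 of these held the motif, against 0.253% of 32851 promoters. A match is a description of the letters and not of binding.

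Smo (ENSMUSG00000001761.7, chr6:29735503-29761365, plus strand) encodes the transmembrane protein that carries the signal on. Its window held 12 regions, 7 in all 6 libraries and 0 in one state only. The promoter region at chr6:29735332-29736596 had its summit at the start site, and its fold enrichment was 14.9, 11.7 and 10.4 in PROLIF and 10.5, 12.4 and 12.3 in DIFF. The states overlapped and the difference was -0.04 ± 0.10 (limma, adjusted p = 0.842). A region in an intron, at chr6:29747724-29749116 and 12.9 kb from the start, was stronger than the promoter in every library. Its fold enrichment was 22.4, 21.2 and 24.2 in PROLIF and 21.5, 20.5 and 22.5 in DIFF, and it ranked at percentile 99.9 of each of the 6 lists by the caller's −log10 p. The states overlapped there as well (difference 0.03 ± 0.07, adjusted p = 0.862). Next by lowest percentile, outside the Smo promoter, were the promoters of the neighbours Ahcyl2, at chr6:29767871-29769459 (fold 9.96 to 13.7), and Tspan33, at chr6:29693897-29694758 (9.75 to 15.5), and neither passed the test.

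Sufu (ENSMUSG00000025231.17, chr19:46396896-46488804, plus strand) encodes the cytoplasmic inhibitor of the Gli proteins. Its window had 26 regions, 16 of them in all 6 libraries, 4 DIFF-only and 4 past the test. The strongest promoter peak lay in a region shared with the promoter of Actr1a (chr19:46395102-46396000) in 5 of 6 libraries. The fold enrichment of the strongest peak was 9.65, 7.73 and 7.39 in PROLIF and 7.57, 9.9 and 8.56 in DIFF. The 7.39 of PROLIF replicate 4 came from the region at the first Sufu start and not from the shared region. For the shared region the difference was 0.18 ± 0.14 (limma, adjusted p = 0.418). The region at the first Sufu start, chr19:46396690-46397357, had a fold of 8.4, 7.52 and 7.39 in PROLIF and 6.97, 7.58 and 7.52 in DIFF (difference -0.02 ± 0.15, adjusted p = 0.955). Neither promoter region passed the test. After normalisation the shared region had 2.99, 2.96 and 2.91 in PROLIF and 3.07, 3.2 and 3.14 in DIFF, without overlap. It passed by limma on the normal score of the rank of −log10 p, in place of log2 fold (adjusted p = 0.0289).

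Inside Sufu, neighbouring regions went opposite ways. The region at chr19:46484236-46485042, in an intron 87.8 kb from the start, had a fold of 8.8, 8.66 and 5.87 in PROLIF and 4.15, 4.68 and 3.84 in DIFF, and fell (difference -0.78 ± 0.18, limma adjusted p = 0.00702). A DIFF-only region lay just upstream at chr19:46483925-46484164, with a fold of 3.32, 4.71 and 4.27 from 20, 19 and 33 reads. When peaks up to 200 bp apart were merged, they became 1 region and this DIFF-only call was lost. A further intronic region at chr19:46452255-46452777, 55.7 kb from the start, rose. Its fold was 7.05, 4.06 and 3.64 in PROLIF and 6.4, 6.57 and 8.27 in DIFF, so that PROLIF replicate 1 lay among the DIFF values before normalisation (difference 0.68 ± 0.20, adjusted p = 0.0311). That call was lost in 4 of the 11 alternatives that could test it, each with 1 library left out: PROLIF replicate 2 or 4, or DIFF replicate 1 or 4 (largest adjusted p = 0.153 over the alternatives).

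In the flanks of Sufu, the promoter region of Mfsd13a at chr19:46356579-46357229 rose in DIFF. Its fold was 3.53, 4.82 and 3.12 in PROLIF and 6.26, 8.09 and 6.85 in DIFF, without overlap (difference 0.98 ± 0.20, limma adjusted p = 0.00258). The call was kept in the 10 alternatives that could test it. With lists of equal length or the strongest 20000 peaks this region was not tested. An intergenic region nearest to Trim8, at chr19:46518200-46518813, fell by 0.62 ± 0.19 on the log2 scale (adjusted p = 0.0336). Its fold was 5.9, 6.22 and 3.99 in PROLIF and 3.31, 3.75 and 2.62 in DIFF, and this call was lost in 6 of the 10 alternatives that could test it, including without PROLIF replicate 1 or 2 and without any 1 of the DIFF libraries (largest adjusted p = 0.179). The other DIFF-only regions of this window were at chr19:46375581-46375779 (intergenic, fold 3.14 to 4.55), chr19:46501712-46501932 (exon of Trim8, 2.05 to 2.24) and chr19:46529815-46530291 (intergenic, 2.5 to 4.32). By lowest percentile over the 6 lists, the first 3 regions outside the Sufu promoters were chr19:46523510-46524344 near Trim8 (fold 7.37 to 11.5), the Trim8 promoter at chr19:46499718-46500449 (4.76 to 6.6) and the promoter of 2310034G01Rik at chr19:46348582-46349474 (8.12 to 13), none of which passed the test.

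Gli1 (ENSMUSG00000025407.7, chr10:127329882-127341974, minus strand) encodes an activator that the pathway itself induces. Its window had 10 regions, 5 in all 6 libraries and 0 in one state only. The strongest promoter peak lay inside the gene at chr10:127338784-127339579, about 0.9 kb downstream of an internal start, with a fold of 9.07, 8.03 and 8.21 in PROLIF and 7.24, 9.82 and 9.1 in DIFF. The states overlapped, with a difference of 0.09 ± 0.14 (limma, adjusted p = 0.744). Close to the outermost start, the region at chr10:127342153-127342531 was weaker and was missing from PROLIF replicate 4. Its fold was 4.92 and 3.89 in PROLIF replicates 1 and 2, and 2.52, 2.77 and 3.77 in DIFF. By lowest percentile, the first 3 regions outside the Gli1 promoters were promoters of neighbours: Ddit3 and Mbd6 at chr10:127289977-127291406 (fold 7.05 to 10.4), Mars at chr10:127311033-127312577 (9.63 to 14.5) and R3hdm2 at chr10:127380185-127381447 (9.91 to 12.6). None of them passed the test.

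Gli2 (ENSMUSG00000048402.14, chr1:118834132-119053619, minus strand) encodes the main activator of the family. Its window had 34 regions, of which 14 were in all 6 libraries and 4 were DIFF-only, and no other protein-coding gene overlaps it. All 4 DIFF-only regions lay in introns, 113.0 to 202.8 kb from the outermost start and 42 to 132 kb from the nearest annotated one. The strongest, at chr1:118905407-118905737, had a fold of 5.3, 6.55 and 4.83 in DIFF replicates 1, 2 and 4, from 32, 50 and 63 reads at the summit. Those at chr1:118940417-118940709 (fold 3.13 to 4.26), chr1:118909110-118909416 (2.62 to 3.61) and chr1:118850658-118850879 (3.02 to 3.12) were weaker. Of the 4, those at 148.1 and 113.0 kb were kept when the lists were cut to equal length.

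The 2 regions of Gli2 past the test were also intronic. The region at chr1:118935796-118936587 lay 117.3 kb from the outermost start and 46.3 kb from the nearest annotated one. Its fold was 4.03, 4.68 and 3.51 in PROLIF and 5.56, 8.85 and 6.82 in DIFF, and it rose (difference 0.85 ± 0.20, limma adjusted p = 0.00574). It kept its call in the 10 alternatives that could test it, and with lists of equal length or the strongest 20000 peaks it was not in all 6 libraries and was not tested. The region at chr1:118976405-118977148 lay 76.8 kb from the outermost start but 5.81 kb downstream of an alternative start. Its fold was 12.8, 10.9 and 10.7 in PROLIF and 7.48, 7.81 and 7.33 in DIFF, and it fell (difference -0.56 ± 0.12, limma adjusted p = 0.00419). It ranked between percentiles 96.1 and 98 of the PROLIF lists and between 76.8 and 82.5 of the DIFF lists, and its call was kept in 12 of 12 alternatives. The strongest region of the window, at chr1:119033458-119034589 in an intron 19.6 kb from the start, did not separate the states (fold 12.5 to 16.8, difference 0.12 ± 0.09, adjusted p = 0.431). Upstream of the gene, the region at chr1:119083571-119084012 came next by lowest percentile (5.17 to 7.93, adjusted p = 0.899).

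Promoter values of Gli2 depend on which start is read. By the rule of the strongest peak within 3 kb of any start, the values of 5 libraries came from an alternative start at chr1:118982292-118983299, with a fold of 12, 9.87, 11.1, 11.7 and 10.4 in PROLIF replicates 1 and 4 and DIFF replicates 1, 2 and 4. In PROLIF replicate 2 the highest-ranked peak was at chr1:119049778-119050612 (fold 7.79), and that region, which was the one tested, was lower after normalisation in every DIFF library (2.62, 2.7 and 2.73) than in any PROLIF library (2.8, 2.97 and 3.11) and differed by -0.28 ± 0.16 (limma, adjusted p = 0.274). The region of the alternative start differed by 0.15 ± 0.12 (adjusted p = 0.425). The region at the outermost start, chr1:119053356-119054319, had a fold of 7.09, 6.93 and 7.64 in PROLIF and 6.99, 8.77 and 8.14 in DIFF (difference 0.19 ± 0.17, adjusted p = 0.491). None of the 3 passed the test. The region tested passed it among the strongest 20000 peaks (-0.34, adjusted p = 0.0406). It also passed by limma on the normal score of the rank of −log10 p, in place of log2 fold (adjusted p = 0.00662).

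Gli3 (ENSMUSG00000021318.15, chr13:15463235-15730026, plus strand) encodes the main repressor of the family. It had 28 regions, 13 in all 6 libraries, 1 DIFF-only and the 1 PROLIF-only region of the 7 windows. The promoter region at chr13:15462728-15464676 had a fold of 11.8, 10.4 and 8.9 in PROLIF and 9.05, 11 and 10.7 in DIFF, with overlapping states (difference 0.02 ± 0.11, limma adjusted p = 0.933). The DIFF-only region at chr13:15664681-15665149, in an intron 201.8 kb from the start, was the strongest of the 12, with a fold of 7.77, 8.84 and 6.99 from 35, 34 and 48 reads. The PROLIF-only region at chr13:15444362-15444704, 18.7 kb upstream in an intron of Gm6556, had a fold of 3.78, 4.31 and 6.24 from 14, 16 and 23 reads. An intronic region at chr13:15624239-15625284, 161.7 kb from the start, fell in DIFF. Its fold was 15.1, 14.7 and 15.8 in PROLIF and 9.09, 9.22 and 10.2 in DIFF, with no overlap (difference -0.64 ± 0.11, adjusted p = 0.000895), and its call was kept in 12 of 12 alternatives. By lowest percentile, the first 3 regions outside the promoter were chr13:15741459-15742405 (fold 10.8 to 17) and chr13:15758843-15759942 (7.39 to 10.8), both intergenic and nearest to Inhba, and chr13:15556420-15557241 in an intron (9.91 to 13.5), and none passed the test.

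**Figure D4:**
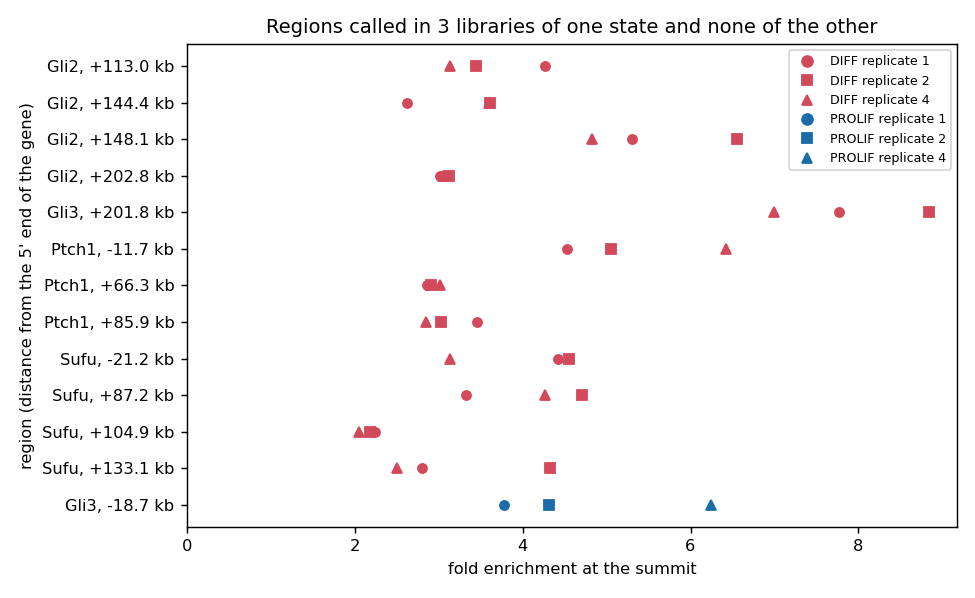
Fold enrichment at the summit (horizontal axis) in each library for the 12 DIFF-only regions (red) and the 1 PROLIF-only region (blue), named by gene and distance from its 5' end (vertical axis). The Gli3 region at 201.8 kb reaches 6.99 to 8.84, whereas the Trim8 exon region in the Sufu window stays between 2.05 and 2.24.

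The sequence around the summit is given for the strongest DIFF-only region of each window and for the PROLIF-only region, since these carry the presence or absence of a peak between the states. Each is 101 bases of the plus strand of GRCm38, and capitals mark any motif searched.
Gli2 DIFF-only, chr1:118905503-118905603: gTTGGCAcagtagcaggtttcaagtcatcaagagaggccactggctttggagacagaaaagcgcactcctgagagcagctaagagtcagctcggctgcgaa
Gli3 DIFF-only, chr13:15664958-15665058: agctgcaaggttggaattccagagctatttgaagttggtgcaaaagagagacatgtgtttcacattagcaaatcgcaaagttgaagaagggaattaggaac
Ptch1 DIFF-only, chr13:63585288-63585388: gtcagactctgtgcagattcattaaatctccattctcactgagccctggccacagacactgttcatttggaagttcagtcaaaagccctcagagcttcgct
Sufu DIFF-only, chr19:46484004-46484104: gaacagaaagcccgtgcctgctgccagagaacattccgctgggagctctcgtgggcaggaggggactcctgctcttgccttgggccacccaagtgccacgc
Gli3 PROLIF-only, chr13:15444529-15444629: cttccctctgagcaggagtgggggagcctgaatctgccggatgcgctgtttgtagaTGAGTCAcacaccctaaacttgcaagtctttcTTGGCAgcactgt
The motifs searched besides that of Gli were the NFI motif TTGGCA, the SOX motifs ACAAAG and ACAATG, the E-boxes CAGCTG and CAGATG and the AP-1 motifs TGACTCA and TGAGTCA, on both strands and within 100 bp of the summit. Capitals stand for an NFI motif in the Gli2 sequence and for an AP-1 motif and an NFI motif in the PROLIF-only sequence, and the other 3 hold no match within these 101 bases. Among the 12 DIFF-only regions, 5 held the NFI motif, 3 a SOX motif, 3 CAGCTG, 1 CAGATG and 0 an AP-1 motif. Over all regions the shares were 18.3% for the NFI motif, 29.2% for SOX, 19.6% for CAGCTG, 17.3% for CAGATG and 5.76% for AP-1. Of all DIFF-only regions of the genome, 32.8% held the NFI motif. In the 142 window regions it was found in 29 (20.4%), and CAGCTG in 46 (32.4%).

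Every one of the 7 members was called within 3 kb of a start in all 6 libraries, as were 64.4% of 21951 protein-coding genes. Within 1 kb of a start 6 members were, and Shh had such a peak in only 1 library. Among the strongest 20000 peaks, 6 members had a promoter peak in all 6 libraries. None of the 7 promoter regions passed the test between states, with differences from -0.28 (Gli2) to 0.47 (Shh) on the normalised log2 scale. In the regions tested, Smo had the highest normalised values in both states and Gli3 the next, without overlap between them. In PROLIF the lowest means were those of Shh and Ptch1, whose libraries overlapped. In DIFF the lowest were those of Ptch1, Gli2 and Shh, which overlapped too. The place of Gli2 rests on the region read: at the alternative start, which gave the strongest promoter peak in 5 of 6 libraries, its normalised values were 3.33, 3.19 and 3.46 in PROLIF and 3.6, 3.44 and 3.4 in DIFF. That is a DIFF mean above that of Gli3, with libraries that overlap those of Smo and Gli3. Their regions differ in width and position, so these are levels of enrichment at a summit and not amounts of transcription.

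**Figure D5:**
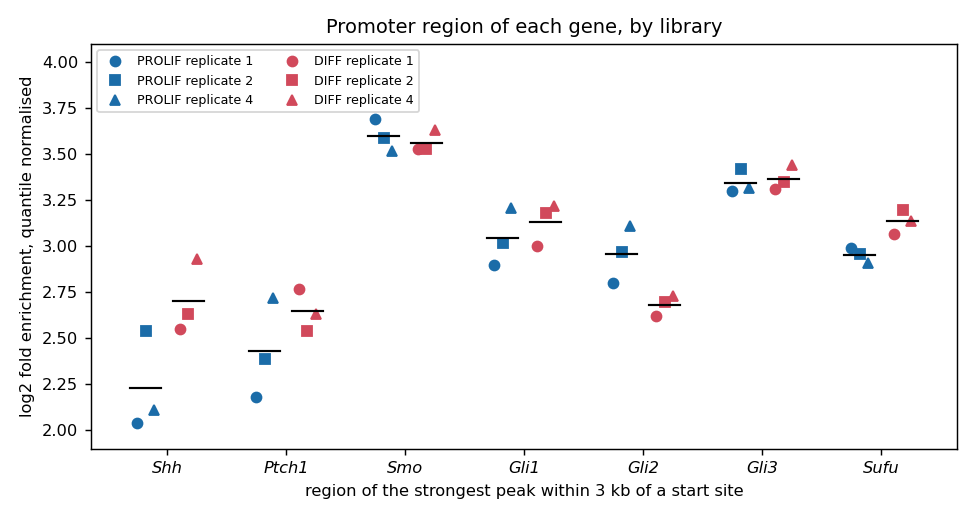
Quantile-normalised log2 fold enrichment (vertical axis) of the promoter region tested for each gene (horizontal axis), with 1 point per library, PROLIF in blue, DIFF in red and a bar at the mean of 3 libraries. Smo and Gli3 stand highest in both states, and no gene passed the test between states.

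The rest of the pathway was read from 37 further genes. A promoter peak was present in all 6 libraries for 35 (94.6%), in some libraries for 2, and in none for 0. Of the 35 tested, 1 rose (2.86%, under the 6.89% of all regions tested) and 0 fell (against 8.86%) by limma, with a median difference of 0.06. The 1 that rose was Disp1, which releases the lipid-modified ligand from the cell that makes it. The Disp1 region tested, chr1:183147186-183147700, lay inside the gene. Its normalised values were 3.3, 3.67 and 3.35 in PROLIF and 3.93, 3.82 and 3.83 in DIFF, without overlap (difference 0.42 ± 0.11, limma adjusted p = 0.0118). The strongest Disp1 promoter peaks of the libraries did not all fall in that region. Their fold was 15.4, 12.3 and 9.1 in PROLIF and 14, 15.1 and 14.2 in DIFF, where the states overlapped. By role, promoters were called in all 6 libraries for 4 of 5 genes of ligands and their release, 5 of 5 receptors, co-receptors and inhibitors, 10 of 10 genes of the cilium and transduction, 6 of 6 kinases and degradation genes and 10 of 11 target genes. The exceptions were the ligand Dhh, missing from DIFF replicate 4, and the target gene Foxf1, missing from PROLIF replicate 4. Evc and Evc2, whose products act with Smo at the cilium, share 1 promoter region, so their values are 1 measurement. Boc, a co-receptor, and Hhip, an inhibitor that binds the ligand, had differences of -0.23 and -0.10, and among targets Ccnd1 and Mycn had -0.01 and 0.13, none past the test.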

How the data were processed

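ATAC-seq peak lists of 6 Srr2 del/del libraries, 3 PROLIF and 3 DIFF, were grouped by the state and replicate number in the labels. Reads were clipped and trimmed by the authors with Cutadapt and Trimmomatic, mapped by Bowtie2 to GRCm38 (mm10), and passed through Picard to mark duplicates. Narrow peaks were called for each library by MACS2 (no model, FDR 0.05). Versions, the read extension, the transposase shift and any blacklist are not given in the sources used here and could change where peaks start and how many there are. The deposited lists give a score, a fold enrichment (the ratio of the summit pileup to the local background, each with the small constant of the caller added), and −log10 p and −log10 q values. Replicates were not pooled, and no read totals were used.

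Peaks overlapping by 1 bp or more were merged, and those overlapping a gene body ± 50 kb (GENCODE M21, GRCm38) were taken. Percentiles rank the −log10 p deposited within a list. Pileup and background were solved from fold and p, which gave whole reads (within 0.02) for at least 99.9879% of the peaks used, those with a −log10 p under 250. The strength of regions in all 6 libraries was tested with limma 3.58.1 (R 4.3.3) on quantile-normalised log2 fold, which allows for different depths only in part. Regions missing from any library stay out of this test. Window counts used exact two-sided permutation. Scripts ran in Python with pandas and SciPy and were tested on simulated data.

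The members, gene lists, motifs and tests were chosen with earlier results of these data known. All 7 members were described. Named regions were those called in one state only, those past the test, the 3 outside the member's promoters with the highest lowest percentile, and those with the Gli motif. In the Shh window no region in all 6 libraries lay outside its promoters. Pathway genes outside that rule (Boc, Hhip, Ccnd1, Mycn) were named after their values were seen. Some planned genes are not reported here. Alternatives were q of 0.01 or less, lists of equal length, the strongest 20000 peaks, flanks of 100 or 5 kb, a cover of 50% of a region, promoters of 1 kb, median centring, a normal score, each library left out and a replicate block. The normal score of the rank of −log10 p took the place of log2 fold. Merging peaks up to 200 bp apart was added after seeing the data. The labels give the PROLIF cultures 2 days in vitro, and the series' design text gives 3.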

Additional observations from a re-analysis of the deposited data

How the results depend on the processing

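Differences tested by limma kept their direction and side of the threshold in most alternatives, and most counts stayed close to their main value. Window peaks and covered bases could not change side of 0.05, since their exact permutation p cannot fall below 0.1 (0.25 with the replicate block). The values that moved are given here or with their regions above. With lists of equal length 1 window region was higher in DIFF, and among the strongest 20000 peaks 1 was, with 25 regions in all 6 libraries, 1 DIFF-only and 0 PROLIF-only regions. Among these 20000 the states also overlapped in window peaks (difference 3.33, exact permutation p = 0.2). None of the 12 DIFF-only regions was then DIFF-only (0 of 12), against 5 of 12 with lists of equal length, 12 of 12 at q of 0.01 and 10 of 12 when peaks up to 200 bp apart were merged. With equal lists 8 window regions were DIFF-only in all (6.9%, against 3.92% of all regions), and among the strongest 20000 peaks the window share was 2.27%, against 4.62%. Flanks of 100 kb gave 5 regions higher in DIFF, and flanks of 5 kb gave 41 regions in all 6 libraries, 7 DIFF-only and 0 PROLIF-only. A cover of 50% gave 36 regions in all 6 libraries and 2 PROLIF-only. The motif over whole regions gave 3.

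Among promoters, Gli2 passed the test in the strongest 20000 peaks (-0.34 on the log2 scale, limma adjusted p = 0.0406). The normal score ranks the −log10 p and not the fold, so its differences are not on the log2 scale. By this score Gli2 (-0.69, limma adjusted p = 0.00662) and Sufu (0.40, adjusted p = 0.0289) passed, and 9 window regions were higher in DIFF. The signs of Gli3 (-0.006 in the strongest 20000 peaks, -0.22 in normal score units) and Smo (0.001 by median centring, 0.13 in normal score units), both near 0 on the log2 scale, turned. For each of these the cause was not tested.

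Leaving out 1 library gave 12 to 19 DIFF-only regions (19 without PROLIF replicate 1), 1 to 3 PROLIF-only regions (3 without PROLIF replicate 2), 2 to 3 regions higher and 4 to 5 lower in DIFF, and a difference of 21.3 to 31.8 window peaks. Smo ranged from -0.076 to 0.004 (reversed without PROLIF replicate 1) and Gli3 from -0.016 to 0.058, with -0.003 without PROLIF replicate 1 and the lowest value without DIFF replicate 4.

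The replicate numbers were not taken as pairs. Deviations of same-numbered libraries correlated at 0.0732, 0.122 and 0.105 and of different numbers at -0.0922 to -0.00336, so every library went best with its own number, which is a hint only. With the replicate block, 5 window regions were higher and 6 lower in DIFF, 26 regions gained a peak in at least 2 of 3 pairs with none opposite, and 3 lost one. No promoter call changed with the block. Depth limits what an absent peak says, since DIFF replicate 4 had 2.11 times the background of PROLIF replicate 4.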
